A study of Mus musculus with 8 samples.

Results

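Long non-coding RNAs (lncRNAs) that carry small nucleolar RNAs (snoRNAs) in their introns were described in mouse embryonic fibroblasts: Gas5, Snhg1, Snhg3, Snhg5, Snhg6, Snhg8, Snhg12, Snhg15, Zfas1 and Epb41l4aos. These 10 genes, of 55358 in the files, were chosen by name, with earlier results of these data known. Each level is the sum over the gene's transcripts, of which the 10 genes have 106. Levels are in FPKM, fragments mapped to a transcript scaled by the authors to its length and to the size of the library, so that levels of different genes can be compared.

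The fibroblasts, connective-tissue cells grown from embryos, were wild type (WT) or labelled Arid5a-/- (KO), and both genotypes were kept for 24 h either without cytokine (control) or with 100 ng/ml interleukin 6 (IL-6-treated). Each of the 4 groups had 2 libraries, and the labels give no mouse strain, embryo age, number of embryos or deleted exon. Arid5a encodes a protein that binds and stabilizes mRNAs of inflammation, and the purpose of the series was to find lncRNAs tied to IL-6 signalling through Arid5a that could matter in breast tumours. Whether the libraries of a group are separate cultures is not stated in the labels, and the p-values below reflect only how much those libraries differ, which may be technical variation.

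A snoRNA host is transcribed by RNA polymerase II and spliced. The snoRNA is trimmed out of the freed intron and enters a nucleolar particle, where box C/D snoRNAs guide ribose methylation and box H/ACA snoRNAs guide pseudouridylation of ribosomal RNA. The joined exons of such a lncRNA hold no long reading frame, and in many hosts they begin with a pyrimidine tract like that of ribosomal protein mRNAs and are degraded on the ribosome by nonsense-mediated decay. The level of a spliced host therefore depends on its decay as well as on its transcription, and it is not a measure of the snoRNA made from it.

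The 10 host genes hold 34 snoRNA entries of the GENCODE M21 annotation (build GRCm38) at 32 separate positions. All 34 lie in an intron of the host's most abundant transcript, and 0 overlap one of its exons. Gas5 (chr1:161034422-161038539, plus strand) holds 9 positions and Snhg1 (chr19:8723475-8726443, plus) 8. Snhg12 (chr4:132308623-132311024, plus) holds 4 and Zfas1 (chr2:167062934-167065862, plus) 3. Snhg3 (chr4:132348014-132353686, minus) and Snhg5 (chr9:88521050-88522929, minus) hold 2 each. Snhg6 (chr1:9941959-9944118, minus), Snhg8 (chr3:123507552-123508404, minus) and Snhg15 (chr11:6525591-6528760, minus) hold 1 each, as does Epb41l4aos, whose position is given with its neighbour.

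The products that define the genes are shown by 3 box C/D and 2 box H/ACA snoRNAs, with GRCm38 positions, taken from the GENCODE M21 transcripts and written 5′ to 3′ on the host's strand. Capitals mark the core of the C box (TGATG) and the D box (CTGA) in the first 3, and the ACA box in the other two.
Snord50a (Snhg5, chr9:88521529-88521600, minus): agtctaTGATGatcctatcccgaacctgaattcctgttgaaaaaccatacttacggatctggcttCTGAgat
Snord87 (Snhg6, chr1:9942463-9942549, minus): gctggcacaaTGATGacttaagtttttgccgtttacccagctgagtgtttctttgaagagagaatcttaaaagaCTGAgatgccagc
Snord12 (Zfas1, chr2:167065276-167065365, plus): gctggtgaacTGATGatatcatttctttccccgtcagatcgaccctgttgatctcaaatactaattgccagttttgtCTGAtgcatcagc
Snora24 (Snhg8, chr3:123507937-123508066, minus): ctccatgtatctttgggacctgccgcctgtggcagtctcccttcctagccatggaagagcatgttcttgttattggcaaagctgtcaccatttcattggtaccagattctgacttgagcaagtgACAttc
Snora9 (Snhg15, chr11:6528033-6528165, minus): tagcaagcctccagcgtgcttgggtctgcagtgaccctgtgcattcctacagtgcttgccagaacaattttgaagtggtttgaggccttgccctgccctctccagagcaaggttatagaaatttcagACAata
The libraries do not measure these products. They were made with an mRNA kit, and of 31 snoRNA names of these hosts in the files, 27 were listed at 0 in all 8 libraries. The other 4 were above 0 in some: Snord22 in 3 libraries, Snora24 in 2, Snora73a in 6 and Snora73b in 7. All values below are of the spliced or unspliced host RNA.

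The start regions of the hosts are shown because a pyrimidine tract at the start is the known hallmark of such genes. RefSeq promoter windows (GRCm38.p6) were matched for 8 of the 10 genes, 9 windows in all because Gas5 has 2. For 7 of them, 45 bases before to 25 bases from the annotated start are printed 5′ to 3′. Capitals mark a TATA motif (TATAAA or TATATA lying 40 to 16 bases before the start) and a pyrimidine tract (a C followed by at least 4 bases C or T, lying whole within 10 bases of the start), both on the sense strand.
Gas5 (chr1:161035121-161035190, plus): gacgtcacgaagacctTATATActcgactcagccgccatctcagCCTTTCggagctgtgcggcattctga
Snhg12 (chr4:132308633-132308702, plus): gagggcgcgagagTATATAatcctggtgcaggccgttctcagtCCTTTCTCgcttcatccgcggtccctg
Snhg8 (chr3:123508312-123508381, minus): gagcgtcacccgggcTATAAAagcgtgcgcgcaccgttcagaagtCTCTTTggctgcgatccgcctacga
Snhg3 (chr4:132353662-132353731, minus): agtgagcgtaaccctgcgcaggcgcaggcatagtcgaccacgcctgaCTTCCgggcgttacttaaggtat
Snhg5 (chr9:88522873-88522942, minus): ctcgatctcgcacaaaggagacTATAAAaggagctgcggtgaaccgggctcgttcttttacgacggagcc
Snhg1 (chr19:8723442-8723511, plus): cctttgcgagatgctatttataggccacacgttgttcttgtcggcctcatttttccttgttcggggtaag
Snhg15 (chr11:6528736-6528805, minus): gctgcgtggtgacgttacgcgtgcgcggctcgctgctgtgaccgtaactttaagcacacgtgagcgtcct
The TATA motif was in 4 of the 9 host windows (Gas5, Snhg12, Snhg8, Snhg5) and in 2.73% of all 32851 promoter windows. The pyrimidine tract was in 4 of 9 (Gas5, Snhg12, Snhg8, Snhg3) and in 26.52% of all. The motif TTCNNNGAA was in 0 of 9 over the whole 300 bases and in 8.3% of all, and TGACGT, on either strand, was in the windows of Gas5 and Snhg15 and in 7.51% of all. Of the members with a window that were lower in KO (below), Gas5 (in the printed window only), Snhg12, Snhg8, Snhg3 and Snhg5 had at least 1 of the first 2 motifs. Zfas1 had neither. Snhg1 and Snhg15, which passed as higher in KO only without IL-6, had neither. Snhg6, higher in both conditions, had no window. A link between these motifs and the direction of a member was not tested. These motifs were picked after the sequences had been seen, so the shares are a description, and a match is not a bound site.

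Arid5a was lower in the KO libraries, at 5.51 to 8.47 FPKM, than in the WT libraries, at 15.9 to 31.0 FPKM. The genotypes also differed in markers of cell type. Fibroblast markers were present in all libraries (10 of 10 at a mean of 1 FPKM or more), and their summed level was 8928 to 9132 FPKM in control WT libraries and 6430 to 6452 in control KO. The list did not move as one: S100a4 (5100 and 4951 FPKM in control WT, 1095 and 1013 in control KO), Vim, Pdgfra, Pdgfrb and Thy1 were lower in KO, whereas Col1a1, Col3a1, Dcn and Fn1 (209.2 and 254.3 in control WT, 1145 and 1103 in control KO) were higher, in both conditions. Mesothelial markers summed to 47.2 to 52.7 FPKM in control WT libraries and 1626 to 1654 in control KO, epithelial markers to 1.52 to 1.69 and 85.2 to 87.2 FPKM (Krt14 alone gave 64.2 and 66.0 of the latter, Epcam stood at 0.587 and 0.662 against 0.617 and 0.636, and Krt5 at 0), and limb mesenchyme markers to 245 to 257 and 17.7 to 19.6 FPKM. In IL-6-treated libraries the fibroblast sums were 7838 to 8076 FPKM in WT and 6286 to 6608 in KO, and the mesothelial sums 38.3 to 41.1 and 1598 to 1616. Macrophage markers were at 2.06 to 3.64 FPKM in every library (Adgre1 at 0), endothelial markers at most at 0.188 FPKM in WT and at least at 10.8 in KO, and erythroid markers were at most 0.392 FPKM. The endothelial sum in KO came from Tek (8.62 to 9.55 FPKM) and Kdr (2.13 to 2.46), while Pecam1, Cdh5, Emcn and Cldn5 were at most 0.064 FPKM there. A difference in the make-up or origin of the cells and the Arid5a genotype cannot be told apart, and this holds for every genotype difference below. In these bulk libraries, fewer cells of a type and less RNA per cell cannot be told apart either.

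Gas5, a host named for its rise in growth-arrested cells and known as a decoy for the glucocorticoid receptor, was by far the most abundant member. Its level was 198.0 and 213.3 FPKM in control WT, 242.2 and 239.7 in IL-6-treated WT, 176.3 and 170.2 in control KO and 194.5 and 183.4 in IL-6-treated KO. The WT libraries lay above the KO libraries of both conditions, and Gas5 supplied 33.0 to 34.8% of the members' summed level in every library. The 10 genes together gave 600.1 and 612.9 FPKM in control WT, 717.2 and 721.1 in IL-6-treated WT, 528.5 and 513.2 in control KO and 576.0 and 549.7 in IL-6-treated KO, or 0.095 to 0.1246% of all FPKM.

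Next in control WT came Zfas1 (77.3 ± 0.969 FPKM, SD, n = 2), Snhg8 (76.7 ± 1.04), Snhg1 (65.2 ± 5.48), Snhg6 (51.6 ± 4.61) and Snhg12 (38.4 ± 3.07). Snhg3 (32.2 ± 2.59), Epb41l4aos (27.9 ± 2.40), Snhg5 (25.9 ± 0.085) and Snhg15 (5.54 ± 1.65) followed. Libraries of Zfas1 and Snhg8 overlapped, and Epb41l4aos and Snhg5 differed by less than the SD of the former, while the other neighbours in this order did not overlap. The order differed in control KO, where Snhg1 (77.6 ± 2.76) and Snhg6 (73.7 ± 0.005) stood above Zfas1 (58.5 ± 6.61) and Snhg8 (53.0 ± 3.97). There Snhg3, Epb41l4aos, Snhg12 and Snhg5, with means of 18.3 to 19.3 FPKM, could not be ranked.

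**Figure D1:**
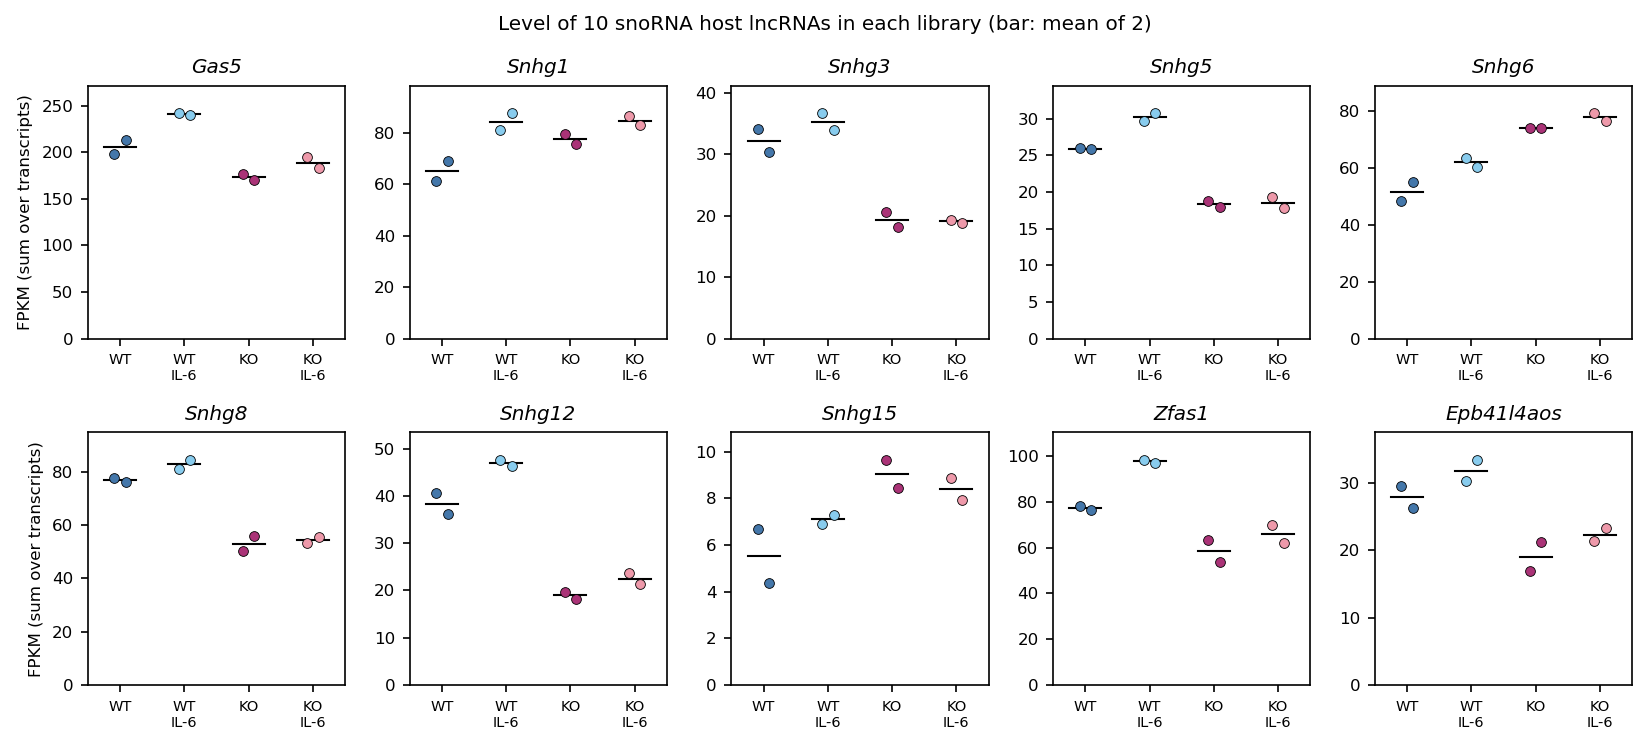
Level in FPKM (vertical axis from 0, own scale per panel) of each of the 10 host lncRNAs in the 8 libraries, grouped as WT, IL-6-treated WT, KO and IL-6-treated KO; points are libraries and bars the mean of 2. Gas5 reached 242.2 FPKM in IL-6-treated WT, and Snhg12 fell from means of 38.4 and 47.0 FPKM in WT to 19.0 and 22.5 in KO.

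With IL-6, all 10 host lncRNAs had a higher mean in WT cells, and 6 of them passed the test: Gas5, Snhg1, Snhg5, Snhg6, Snhg12 and Zfas1. Rises were modest, with levels of 116.7 to 129.3% of control WT among the 6. The test was limma on log2(FPKM + 1) with Benjamini-Hochberg adjustment over 13693 genes, passed at an adjusted p below 0.05, and differences on this scale understate the fold of low genes. Of all genes tested, 15.7% passed, 8.3% as higher and 7.41% as lower. The median difference was 0.24 over the 10 members and -0.002 over all genes. In 9 members both IL-6 libraries lay above both controls, as they did in 27.5% of all genes, and in 0 both lay below, against 28.8% of all genes.

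Among the box C/D hosts, Snhg1, the Snord22 host, had the smallest adjusted p. It went from 61.3 and 69.1 FPKM to 80.9 and 87.7 with IL-6 in WT, a log2 difference of 0.37 ± 0.067 (SE, adjusted p = 0.0112, limma). Zfas1, first studied in the mammary gland, went from 78.0 and 76.7 to 98.5 and 97.2 FPKM. The groups of Snhg1 and of Zfas1 did not overlap, and the Zfas1 difference was 0.34 ± 0.081 (adjusted p = 0.0318). Gas5 rose by 0.23 ± 0.048 (adjusted p = 0.0201). Snhg6, the Snord87 host, went from 48.3 and 54.8 to 63.4 and 60.3 FPKM (0.26 ± 0.061, adjusted p = 0.0298). Snhg5, the host of the Snord50 pair, went from 25.9 and 25.8 to 29.6 and 30.8 FPKM (0.22 ± 0.053, adjusted p = 0.0354). In each of these genes both IL-6 libraries were the higher ones.

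Snhg12, which holds 1 box C/D and 3 box H/ACA positions, went from 40.6 and 36.2 to 47.7 and 46.3 FPKM in IL-6-treated WT (0.29 ± 0.071, adjusted p = 0.0355). The H/ACA hosts Snhg8, Snhg3 and Snhg15 did not pass. A difference between hosts of the box classes was not tested, and the Snhg15 estimate was near that of Zfas1 (0.34). Snhg8 was at 77.5 and 76.0 FPKM without and 81.0 and 84.5 with IL-6 (0.11, adjusted p = 0.252). Snhg3, host of Snora73a and Snora73b, was at 34.1 and 30.4 without and 36.7 and 33.9 with IL-6, and its groups overlapped (0.13, adjusted p = 0.334). Snhg15 was at 6.71 and 4.38 and then 6.91 and 7.29 FPKM (0.33 ± 0.16, adjusted p = 0.218). Snhg15 was the scarcest member, with an estimated 80 to 153 fragments a library, and its control WT libraries differed most in proportion. Epb41l4aos, whose snoRNA entry carries a clone name, was at 29.6 and 26.2 without and 30.2 and 33.5 FPKM with IL-6 (0.18 ± 0.11, adjusted p = 0.328).

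The 6 calls were close to the threshold. Without library 2 of IL-6-treated WT, 0 of 10 members passed in limma, and without library 1 of that group 1 did. With either control WT library or either control KO library left out 3 passed, although the KO libraries enter this comparison only through the shared spread. After quantile normalization 1 passed. With all libraries scaled to the same total FPKM, Snhg1 alone passed, and the share of higher genes among all calls went from 52.8 to 34.7%.

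In KO cells, 0 of 10 members passed with IL-6 in limma, beside 0.0219% of all genes (3 genes). At an unadjusted p below 0.05 there were 2 members, Gas5 and Snhg12, and 7.49% of all genes. The estimate was above 0 in 8 members, with a median of 0.10, and 5 had both IL-6 libraries above both controls (19.6% of all genes, with 18.8% below). Snhg12 was at 19.6 and 18.3 FPKM without and 23.6 and 21.4 with IL-6 in KO (0.23 ± 0.071, adjusted p = 0.502), a difference near its 0.29 in WT. Snhg5 was at 18.8 and 17.9 and then 19.3 and 17.8 FPKM (0.014), and its KO groups overlapped. Zfas1 (0.17), Epb41l4aos (0.23), Snhg1 (0.13), Gas5 (0.12), Snhg6 (0.075) and Snhg8 (0.04) had estimates above 0, and Snhg3 (-0.016) and Snhg15 (-0.094) below.

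The IL-6 differences of the 2 genotypes were themselves compared. Of the members, 0 of 10 passed in limma, beside 6.06% of all genes (2.54% higher, 3.52% lower), and 2 members against 21.3% of all genes had an unadjusted p below 0.05. Those 2 were Snhg1 (-0.24 ± 0.094, KO minus WT, adjusted p = 0.199) and Snhg5 (-0.20 ± 0.075, adjusted p = 0.181). The estimate was below 0 in 9 of 10, Epb41l4aos being the exception at 0.04, and the median was -0.15. A different response of the 2 genotypes was thus not shown for any member.

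**Figure D2:**
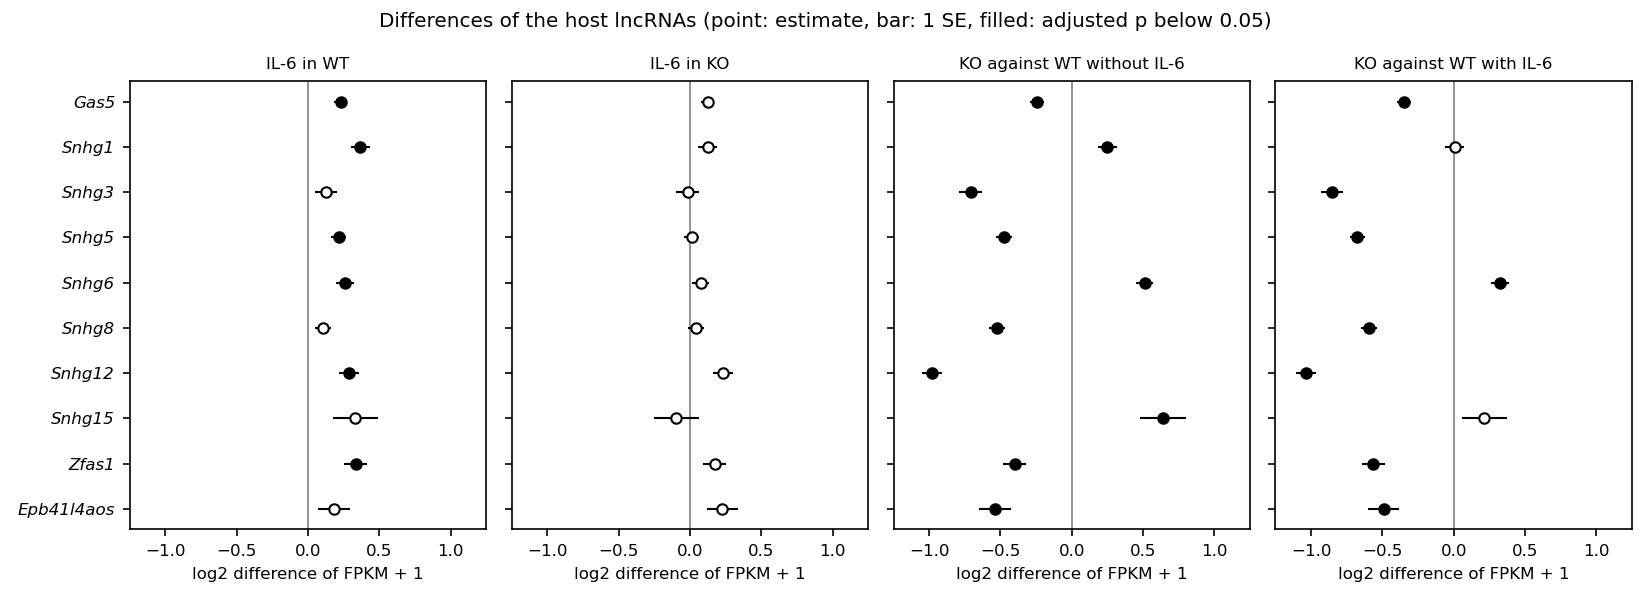
Log2 differences of FPKM + 1 (horizontal axis) for each host lncRNA in 4 comparisons, with bars of 1 SE and filled points for an adjusted p below 0.05 in limma. For IL-6 in WT the 10 points lie right of 0 and 6 are filled, for IL-6 in KO 0 are filled, and in both genotype comparisons Snhg12 lies furthest left.

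Between genotypes the members differed in both directions. Without IL-6, 10 of 10 passed between KO and WT, 7 lower and 3 higher in KO, but 71% of all genes passed too, 34.5% as lower and 36.4% as higher, and both KO libraries lay below both WT libraries in 41.7% and above in 43.3% of all genes. With IL-6, 8 of 10 passed, 7 lower and 1 higher, beside 71.7% of all genes (34.8% lower, 36.9% higher; both libraries below in 41.9% and above in 43.9%). The same 8 members passed in the same direction in both conditions, which share no library, as did 62.5% of all genes. With most genes called between genotypes, nothing particular to the members is read from these counts, and the values of single members are given as levels. The control WT libraries also enter the comparison of IL-6 in WT, so these are not separate measurements of that group.

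Lower in KO were Snhg12, Snhg3, Snhg8, Epb41l4aos, Snhg5, Zfas1 and Gas5, and Snhg12 fell most. Its KO libraries held 19.6 and 18.3 FPKM against 40.6 and 36.2 in control WT, or 49.4% of the WT mean (-0.98 ± 0.071, adjusted p = 1.04e-05, limma), and 47.8% with IL-6 (-1.03, adjusted p = 7.31e-06). Snhg3 held 20.6 and 18.1 FPKM in control KO, 60.0% of WT (-0.71 ± 0.079, adjusted p = 0.000108), and 19.3 and 18.9 with IL-6, 54.0% of WT. No KO library of these 2 genes reached the lowest WT library. Snhg12 and Snhg3 both lie on chromosome 4, with 36989 bases between them that hold the gene Trnau1ap and a part of Rcc1 (below).

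Snhg8 was at 50.2 and 55.8 FPKM in control KO and 53.4 and 55.6 with IL-6, 69.1 and 65.9% of WT (-0.53 and -0.59). Epb41l4aos was at 16.9 and 21.2 and, with IL-6, 21.4 and 23.3 FPKM, 68.2 and 70.2% of WT (-0.54 and -0.49). Snhg5 stood at 70.9% of the WT mean in control cells and at 61.4% after IL-6 (-0.48 and -0.68). The KO libraries of these 3 genes were all below the WT libraries of the same condition, with adjusted p from 1.52e-05 to 0.00499 in limma. Zfas1 was at 63.2 and 53.8 FPKM in control KO and 69.9 and 62.2 with IL-6, 75.7 and 67.5% of WT (adjusted p = 0.00278 and 0.00044). Gas5 stood at 84.2 and 78.4% of WT (-0.25 and -0.35, adjusted p = 0.00248 and 0.000362).

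Snhg6 was higher in KO in both conditions. Its control KO libraries both stood at 73.7 FPKM and the treated ones at 79.1 and 76.4, 143.0 and 125.7% of WT (0.51 ± 0.061, adjusted p = 0.000171, and 0.33, adjusted p = 0.00193). Snhg1 was higher in KO without IL-6, at 79.5 and 75.6 FPKM against 61.3 and 69.1 (0.25 ± 0.067, adjusted p = 0.0112). With IL-6 its KO libraries, at 86.6 and 82.9 FPKM, overlapped the WT libraries at 80.9 and 87.7 (0.008, adjusted p = 0.92). Snhg15 was at 9.66 and 8.44 FPKM in control KO against 6.71 and 4.38 in WT (0.64 ± 0.16, adjusted p = 0.00784) and at 8.88 and 7.93 against 6.91 and 7.29 with IL-6 (0.21, adjusted p = 0.257). The Snhg1 call without IL-6 ended without library 1 of control WT (adjusted p = 0.0626) or of control KO (0.066).

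Across the 8 libraries the members that were lower in KO varied together: Snhg5 and Snhg12 had r = 0.983, Snhg3 and Snhg12 0.977, Gas5 and Zfas1 0.975, and the lowest of these pairs, Zfas1 and Epb41l4aos, 0.824. Snhg6 had r from -0.841 (Snhg3) to -0.5 (Gas5) to these 7 members, and Snhg1 had r = 0.74 to Snhg6. These are descriptions over 8 points that share the 4 groups and the scaling of each library. The 7 were grouped by their direction between genotypes in these same libraries. Positive r among them, and negative r to Snhg6, follow in part from that grouping, so nothing further is read from them.

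Most members are carried by 1 main isoform. Snhg8-201 gave 97.9% of its gene's FPKM, Epb41l4aos-201 94.2%, Snhg12-206 88.6%, Zfas1-205 84.4%, Snhg1-211 82.5%, Snhg15-204 79.5%, Snhg3-204 76.6%, Snhg6-203 76.1% and Gas5-210 70.7%. Snhg5 was the most divided, with 38.3% in Snhg5-202 and 25.8% in Snhg5-201. Cufflinks divides the fragments of overlapping isoforms by a model, so isoform values are less certain than gene sums. Of the 106 transcripts 42 had a mean of at least 1 FPKM, and 53 passed the filter for testing.

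With IL-6 in WT, 2 of the 53 passed, beside 2.86% of all 33179 transcripts (1.81% higher, 1.05% lower). Snhg1-211 rose from 53.7 ± 5.28 to 71.7 ± 2.97 FPKM (0.41 ± 0.071, adjusted p = 0.0433, limma, n = 2 a group), a call that ended in 10 alternatives (adjusted p 0.0554 to 0.191), among them quantile normalization, equal totals, the replicate block (0.0751) and leaving out any library but the second of control WT. Snhg5-226, which is not in the annotation used and was picked for naming after its values were seen, fell from 3.71 ± 0.780 to 0.461 ± 0.154 FPKM (-1.68, adjusted p = 0.00689). With IL-6 in KO, 0 passed in limma beside 0.00603% of all transcripts, and 6 had an unadjusted p below 0.05 beside 6.76% of all. For the difference between the IL-6 changes 0 passed beside 0.747% (0.223% higher, 0.524% lower), and 8 had an unadjusted p below 0.05 beside 12.86%. Between genotypes 17 passed without IL-6 (7 higher, 10 lower, beside 41.1% of all transcripts, 21.2% higher and 19.8% lower) and 16 with IL-6 (7 higher, 9 lower, beside 43.1%, 21.8% higher and 21.3% lower).

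Isoforms of Gas5 differed in direction between genotypes. Gas5-210 fell from 148.6 ± 8.55 to 120.4 ± 3.82 FPKM in KO without IL-6 (-0.30, adjusted p = 0.00817, limma), and Gas5-224 from 33.2 ± 2.59 to 19.3 ± 0.907 (-0.75, adjusted p = 0.00268). A pair of scarce isoforms, named after their values were seen, went the other way without IL-6: Gas5-218 was higher in KO, at 2.78 ± 0.082 against 1.38 ± 0.162 FPKM (0.67, adjusted p = 0.0163), and Gas5-222 at 3.37 ± 0.693 against 2.09 ± 0.444 (0.50, adjusted p = 0.0482). Likewise Zfas1-205 fell from 67.5 ± 1.85 to 45.9 ± 2.53 FPKM (-0.55, adjusted p = 0.00251) while Zfas1-204 rose from 0.560 ± 0.191 to 1.68 ± 0.486 (0.78, adjusted p = 0.0143). With IL-6 these 3 scarce isoforms did not pass (adjusted p = 0.12 for Gas5-218, 0.234 for Gas5-222 and 0.212 for Zfas1-204). Other scarce Gas5 isoforms went both ways. Gas5-213 was at 2.63 ± 1.03 FPKM in control WT and 5.34 ± 1.82 in control KO (0.80, adjusted p = 0.0533). Gas5-205 was at 1.48 and 1.64 FPKM in control WT and 1.11 and 1.09 in control KO. With IL-6, Gas5-223 (0.74, adjusted p = 0.0215) and Gas5-221 (0.90, adjusted p = 0.0249) passed as higher in KO. These were also named after their values were seen. Snhg3-204 was at 69.4% of WT without IL-6 and at 45.8% with it, but its difference between the IL-6 changes did not pass (adjusted p = 0.107, limma). The scarcer Snhg3-202 (43.0 and 74.3%) and Snhg3-203 (42.4 and 74.2%) went the other way between the conditions. The sum of Snhg3 stood at 60.0 and 54.0%. Snhg12-206 was at 46.0 and 43.9%. Snhg5-201 stood at 38.1 and 37.3% of WT, lower than its gene's sum.

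Transcripts annotated as retaining an intron made up a larger part of Gas5, Zfas1 and Snhg8 in KO. For Gas5 the share of the gene's FPKM was 11.2 and 8.75% in control WT, 8.87 and 8.83% in IL-6-treated WT, 18.1 and 16.2% in control KO and 15.9 and 14.7% in IL-6-treated KO. The 4 KO libraries lay above the 4 WT libraries. The mean was 16.2 ± 1.42% in KO and 9.41 ± 1.19% in WT (SD over 4 libraries of both conditions), and the retained-intron transcripts themselves summed to 29.8 FPKM in control KO against 20.4 in control WT while the gene's sum fell. For Zfas1 the share was 8.54, 10.3, 10.6 and 6.90% in the WT libraries and 22.6, 15.4, 17.7 and 18.9% in the KO libraries, means of 9.08 ± 1.71 and 18.6 ± 2.996%. For Snhg8, with 1 such transcript, the share was 1.06, 1.19, 1.35 and 1.75% in the WT libraries and 2.63, 4.09, 2.69 and 1.83% in the KO libraries. The means were 1.34 ± 0.301 and 2.81 ± 0.940%, and the gap between the genotypes was narrow. That transcript was at 0.860 FPKM in control WT and 1.80 in control KO. With IL-6 it was at 1.29 in WT and 1.23 in KO, so there it was not itself higher in KO. The mean of Snhg1 was 12.2 ± 1.74% in WT and 15.4 ± 1.01% in KO, but its lowest KO library, at 13.9%, lay below its highest WT library, at 14.4%.

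The share was larger in all 4 KO libraries than in any WT library for these 3 of 4 members, and for 4.58% of 6010 genes that have such a transcript and a mean of at least 5 FPKM, while 6.67% had all KO libraries below. Over all transcripts the share was 3.993 to 4.135% in WT libraries and 4.075 to 4.235% in KO libraries. The measure was picked after isoform values had been seen, so it is given with no test, and Snhg5 was left out because only 6 of its 28 transcripts were matched to the annotation. Most of these transcripts keep an intron with a snoRNA, since an exon runs across a snoRNA entry in 17 of the 20 of Gas5 and in 3 of the 4 of Zfas1. Those alone held 7.58 ± 0.869% of Gas5 in WT and 12.7 ± 1.83% in KO, and 5.48 ± 0.483 and 12.8 ± 2.88% of Zfas1.

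**Figure D3:**
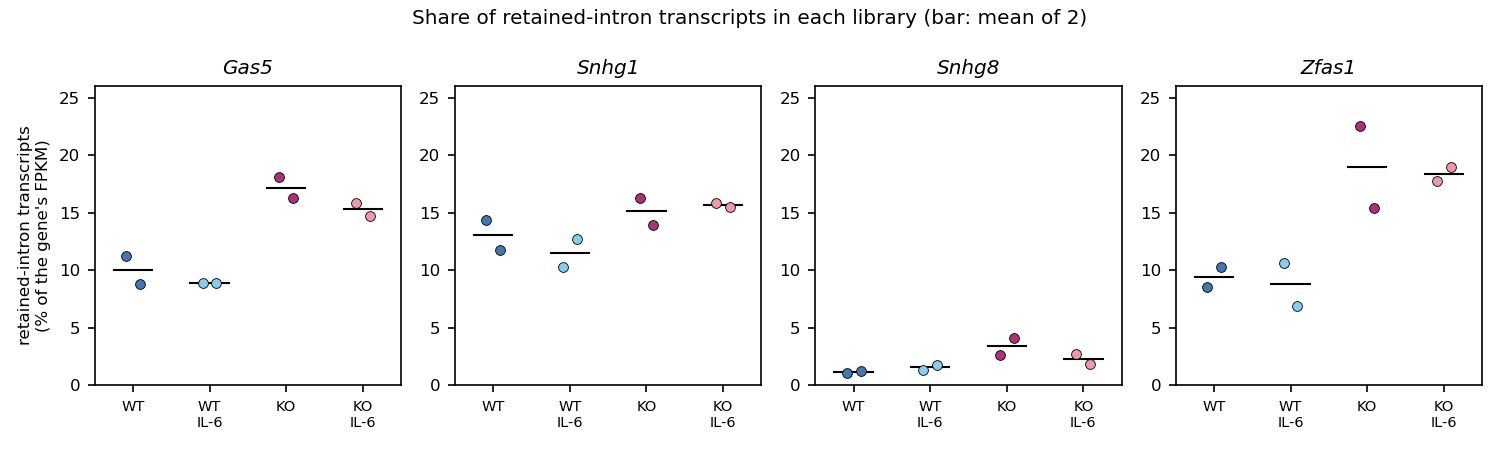
Share of each gene's FPKM held by transcripts annotated as retaining an intron (vertical axis, % from 0) in the 8 libraries for Gas5, Snhg1, Snhg8 and Zfas1; points are libraries and bars the mean of 2. For Gas5 the KO libraries lie at 14.7 to 18.1% and the WT libraries at 8.75 to 11.2%, and for Snhg1 the genotypes overlap.

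Several hosts share a start region or an end with a protein-coding gene. Zfas1 and Znfx1, an antiviral helicase gene, start on opposite strands with an overlap of 82 bases, and both were lower in KO: Znfx1 fell from 44.2 ± 0.735 to 17.6 ± 1.11 FPKM (-1.28, adjusted p = 1.66e-05, limma). Snhg1 and Slc3a2, which encodes the heavy chain of amino-acid transporters, start 106 bases apart, and both were higher in control KO, Slc3a2 at 130.5 ± 3.32 against 79.5 ± 2.12 FPKM (0.71, adjusted p = 1.41e-06). With IL-6 the pair did not move together: Slc3a2 was higher in KO (0.45, adjusted p = 1.76e-05, limma), and Snhg1 did not pass (0.008, adjusted p = 0.92). Slc3a2 also rose with IL-6 in WT (0.19, adjusted p = 0.0132), a call that ended without library 2 of control WT (0.0684) or without library 1 (0.0623) or 2 (0.0586) of IL-6-treated WT. Zbtb37, the divergent neighbour of Gas5, did not pass without IL-6, at 2.65 ± 0.487 FPKM in WT and 2.70 ± 0.369 in KO (0.02, adjusted p = 0.887). With IL-6 it did not pass either (0.27, adjusted p = 0.0646), but both KO libraries lay above both WT libraries, while Gas5 was lower in KO.

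Neighbours other than divergent ones were picked for naming after their values were seen. Prss12, a serine protease gene that ends 954 bases from the end of Snhg8, was at 1.05 ± 0.301 FPKM in control WT libraries and 38.2 ± 1.22 in control KO (4.27 ± 0.10, adjusted p = 2.26e-08), while Snhg8 was lower in KO. Epb41l4a ends 340 bases from Epb41l4aos (chr18:33794892-33795986, plus strand) and showed the same opposition, at 0.167 ± 0.145 FPKM in control WT libraries and 16.05 ± 0.530 in control KO (3.87, adjusted p = 3.31e-08). Rcc1, a regulator of chromosome condensation, shares its strand and 5592 bases with Snhg3, so fragments of the pair could be divided wrongly. Rcc1 was at 17.3 ± 1.69 FPKM in control WT libraries and 14.9 ± 0.234 in control KO (-0.19, adjusted p = 0.0781), a smaller difference than that of Snhg3. With IL-6, Rcc1 passed as lower in KO, at 81.0% of WT (-0.29, adjusted p = 0.0177, limma), against 54.0% for Snhg3. This Rcc1 call ended in 3 alternatives. Trnau1ap, convergent with Snhg12, stood at 88.7% of WT (-0.17, adjusted p = 0.0171), against 49.4% for Snhg12. The Trnau1ap call ended with equal totals (adjusted p = 0.0661), without library 2 of control WT (0.075) and without library 1 of control KO (0.107). No source used here says whether reads were counted by strand, and the bases that Gas5, Snhg3, Snhg6 and Zfas1 share with a gene on the opposite strand are uncertain.

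**Figure D4:**
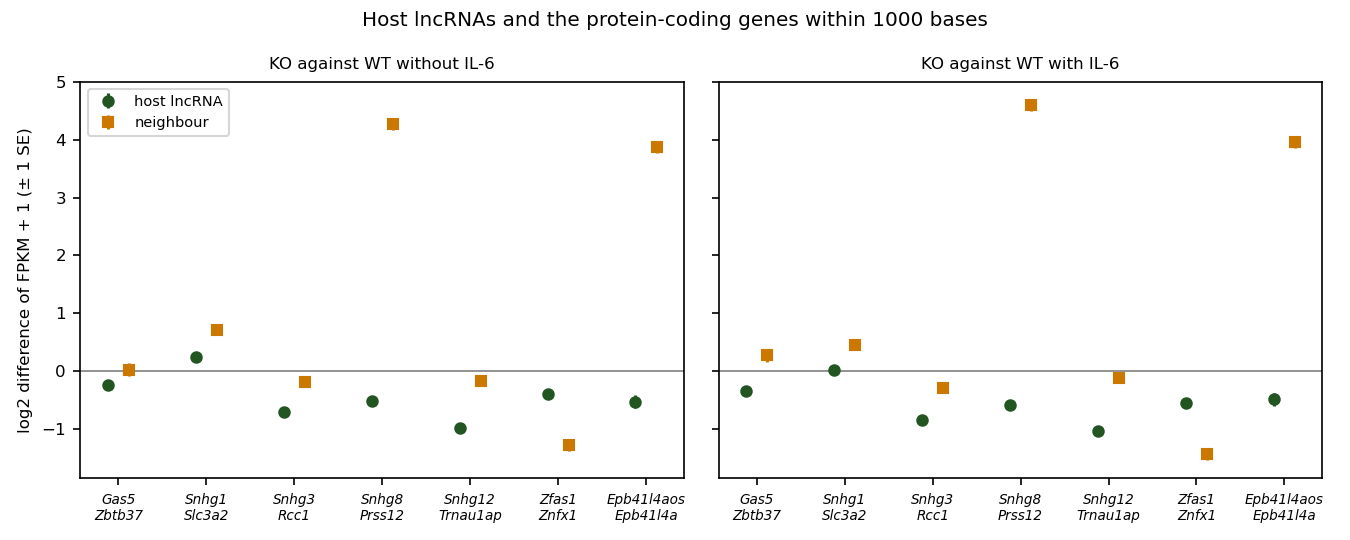
KO minus WT log2 differences of FPKM + 1 (vertical axis, bars of 1 SE) for 7 host lncRNAs (circles) and the protein-coding gene within 1000 bases (squares), without and with IL-6. Prss12 and Epb41l4a lie near 4 while their hosts lie below 0, and Znfx1 lies below 0 with Zfas1.

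Other genes of the snoRNA pathway were described by lists, with counts read against the shares of all genes given above. Of 12 further lncRNA hosts 8 were tested, and 3 rose with IL-6 in WT: Snhg16 (7.78 ± 0.616 to 11.2 ± 0.003 FPKM, adjusted p = 0.032, limma), Snhg17 (adjusted p = 0.0401) and Snhg4 (adjusted p = 0.0439). Between genotypes 2 were higher and 2 lower without IL-6, and 2 higher and 4 lower with it. Snhg18 went from 7.35 ± 0.575 FPKM in WT to 20.3 ± 0.623 in KO (1.36, adjusted p = 7.07e-07), whereas Snhg4 stood at 47.4% and Snhg10 at 18.2% of WT. Their median difference with IL-6 in WT was 0.21.

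Of the protein-coding snoRNA hosts, most of them genes of translation, 18 of 38 rose with IL-6 in WT and 0 fell in limma (22 and 0 at an unadjusted p below 0.05), with a median of 0.13. Rpl27a rose from 340.2 to 387.8 FPKM (0.19 ± 0.030, adjusted p = 0.00615), and Rpl13a also passed (0.22, adjusted p = 0.00893), a call that ended after quantile normalization (adjusted p = 0.0815), with no filter (0.0769) or without library 1 of control WT (0.0613). Between genotypes 16 were higher and 9 lower without IL-6, and 14 higher and 13 lower with it. Of 79 cytosolic ribosomal protein genes tested of 82, 35 rose and 0 fell with IL-6 in WT (62 and 1 at an unadjusted p below 0.05, median 0.15), 29 were higher and 29 lower in control KO, and 21 higher and 38 lower in IL-6-treated KO. These 2 lists share genes, so they are not separate results. The counts depended on scaling: after quantile normalization 2 protein-coding hosts rose and 0 fell with IL-6 in WT, and 3 ribosomal protein genes rose and 1 fell (medians 0.05 and 0.037). With equal totals 5 hosts rose and 0 fell, and 14 ribosomal protein genes rose and 1 fell. Scaling by median ratios changed little: 17 hosts and 33 ribosomal protein genes rose and 0 of either fell (medians 0.119 and 0.14). Between genotypes the median of the ribosomal protein genes changed sign with scaling, from -0.03 to 0.043 without IL-6 and from -0.104 to 0.019 with it after quantile normalization.

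Proteins of the snoRNA particles showed another pattern. Of 19 core and assembly genes, 1 rose (Gar1) and 1 fell (Znhit6) with IL-6 in WT, with a median of 0.04. In control KO 13 were higher and 3 lower (median 0.35), and with IL-6 12 and 3. Fbl, the methyltransferase of box C/D particles, was at 40.6 FPKM in control WT libraries and 67.4 in control KO (0.72 ± 0.048, adjusted p = 6.14e-06), and Ruvbl1, an assembly ATPase, at 26.9 and 42.1 (0.63). Nop56, both a core protein and a snoRNA host gene, stood at 167.4% of WT in both conditions. Under the other 3 scalings 12 to 14 of the particle genes were higher in KO and 2 to 4 lower, with and without IL-6.

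Of 20 nonsense-mediated decay factors, 1 rose with IL-6 in WT (Etf1, adjusted p = 0.049). In control KO 7 were higher and 6 lower, and with IL-6 6 and 8. Magohb, a part of the exon junction complex, stood at 234.4% of WT (1.18, adjusted p = 1.22e-06), and Upf3b fell from 22.1 to 15.6 FPKM (-0.48, adjusted p = 0.000104). Of 23 genes of RNA polymerase I and ribosome biogenesis, 4 rose with IL-6 in WT, among them Myc (26.4 to 33.1 FPKM, 0.32, adjusted p = 0.0117), Polr1a and Utp4. In control KO 11 were higher and 1 lower, and with IL-6 10 and 3. Of 23 proliferation genes, Aurkb rose and Mcm6 fell with IL-6 in WT. In KO 5 were higher and 9 lower without IL-6, and 6 and 12 with it, with Mcm2 at 121.3 FPKM against 57.6 in WT and Rrm2 at 35.5 against 59.2. With equal totals 8 proliferation genes were higher and 7 lower in IL-6-treated KO. With IL-6 in KO 0 members of any of these 7 lists passed in limma. At an unadjusted p below 0.05, 14 ribosomal protein genes and 6 protein-coding hosts were higher there, and each of the other 5 lists had at most 1 gene.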

How the data were processed

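The authors deposited 1 table per library with an FPKM for each of 142869 transcripts, made with HISAT2, Cufflinks 2.2.1 and build GRCm38.p6, per the submitters' processing notes. Per the labels' protocols, an RNeasy kit gave the RNA and the TruSeq stranded mRNA kit the libraries. The annotation release behind the deposited tables is not given in the sources used here. GENCODE M21 held 97.11% of the transcript names and 83 of the 106 of the host genes. Transcripts were summed by the gene name before the final hyphen. From the steps of low FPKM values a depth of 36.0 to 45.8 M fragments per library was estimated (99.5 to 100.0% of the values used lay within 0.1 of a whole number). The estimated fragments behind a member, given for 8 of the 10, ran from 80 to 153 for Snhg15, with a counting error of 11.2% at the lowest, to 2989 to 3973 for Gas5. In each library 12570 to 12699 genes reached 1 FPKM, libraries of a group correlated at 0.9927 to 0.9935 across genes, and no pair was identical.

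Genes reaching 1 FPKM in 2 or more libraries (13693; transcripts, 33179) were tested on log2(FPKM + 1). The fit (limma 3.58.1 under R 4.3.3) gave each group its own mean and a moderated spread from 4 residual degrees of freedom, allowed to vary with intensity. Adjusted p-values (Benjamini-Hochberg over everything tested) passed below 0.05. All 10 members passed the filter. The fit was tested on simulated data. Tables were handled in pandas 2.3.3 and numpy 2.4.6 and plots drawn in matplotlib 3.10.9 (Python 3.11.15).

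The members and lists were chosen with earlier results of these data known. The text names every member; of member transcripts with a mean of at least 1 FPKM, up to 3 a gene; of each list, at most 3 in a comparison, from those with the smallest p where one passed; divergent neighbours; contained snoRNAs; and the 5 genes most alike. Names outside this rule are marked, and not every gene the rule allows is reported here. Alternatives were other scalings, pseudocounts and filters, no trend, a replicate block, a fit of the compared groups and leaving out each library.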

Additional observations from a re-analysis of the deposited data

Results flagged for a closer look

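The IL-6 difference itself differed between KO and WT for 6 of the neighbours and named list genes (limma, adjusted p below 0.05). The list genes were named because they passed in a comparison, so 6 is not a share of any set. Of all 13693 genes tested 6.06% passed here, 2.54% as higher and 3.52% as lower. Over whole lists, 3 of 79 ribosomal protein genes and 1 of 38 protein-coding hosts were lower. Of 19 particle genes 1 was higher and 1 lower. In the lists of further lncRNA hosts, decay factors, RNA polymerase I and proliferation, 0 passed. For Slc3a2, the divergent neighbour of Snhg1, it was 0.19 in WT and -0.07 in KO, a difference of -0.26 (adjusted p = 0.0304). Gnl3, a nucleolar GTPase gene that hosts snoRNAs, had 0.35 and -0.08 (difference -0.43, adjusted p = 0.0342). Znhit6, a box C/D assembly factor, had -0.68 and -0.04 (difference 0.64, adjusted p = 0.0208), and Gar1, a box H/ACA core protein, 0.19 and -0.11 (difference -0.31, adjusted p = 0.0405). Of ribosomal protein genes, Rps16 (0.24 and 0.004) and Rps28 (0.25 and -0.10) gave differences of -0.23 and -0.35 (adjusted p = 0.0381 for both). Each of these calls ended under 7 to 13 of the alternatives, with an adjusted p of at most 0.155, among them leaving out single libraries.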

How the results depend on the processing

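With 2 libraries a group, a fit that leaves one out assumes that the lone library varies like the others. Members passed for IL-6 in WT numbered 6, against 1 after quantile normalization, 1 with equal totals, 1 with no filter, 2 with no intensity trend and 0 to 5 with a library left out. Other scalings, pseudocounts and filters left 6, and the fit of the compared groups 5. For member transcripts, IL-6 in WT gave 2, against 1 after quantile normalization, 1 with equal totals, 1 with the replicate block and 0 to 2 with a library left out, and KO against WT with IL-6 gave 16, against 10 without library 2 of IL-6-treated WT. Over all genes, IL-6 in WT gave 2150 calls (1143 to 1777 with a library left out, 1430 for the compared groups only), the difference between IL-6 changes 830 (397 to 528, other settings 521 to 906) and IL-6 in KO 3 (0 to 6, others 2 to 7). Member counts between genotypes stayed at 9 to 10 without and 8 to 9 with IL-6.

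Estimates that changed sign did so with single libraries left out, and none had passed. Their ranges with a library left out were -0.049 to 0.065 for Snhg1 in KO against WT with IL-6; -0.104 to 0.072 for Snhg3, -0.043 to 0.071 for Snhg5 and -0.035 to 0.115 for Snhg8 with IL-6 in KO; and, for the difference between IL-6 changes, -0.142 to 0.008 for Snhg8, -0.133 to 0.026 for Snhg12 and -0.113 to 0.201 for Epb41l4aos. Among single calls for IL-6 in WT, Gas5 ended in 6 alternatives (adjusted p 0.0577 to 0.0902), Snhg1 in 1 (0.0666), Snhg5 in 11 (0.052 to 0.153), Snhg6 in 13 (0.0514 to 0.138), Snhg12 in 9 (0.0502 to 0.159) and Zfas1 in 8 (0.0512 to 0.128). The list genes Snhg16, Snhg17, Snhg4, Etf1, Gar1, Mcm6, Aurkb and Utp4 lost theirs in 8 to 16, Polr1a in 4 and Myc in 2. Without library 1 of control WT, Snhg15 passed (0.59, adjusted p = 0.0228).

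Same-numbered libraries did not deviate together (r -0.097 to 0.055), so no sign of pairing by number was seen. A shared deviation that is small beside the other variation would not show in this r. With the replicate block 4 members passed for IL-6 in WT. The cause of these changes was not tested.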

Other observations

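The 5 genes most like the members' mean z-score over the 8 libraries, among 7845 with a mean of at least 10 FPKM, were Naa25 (r = 0.9965), Gm4332 (0.9881), Ctsb (0.985), Cyp1b1 (0.9829) and Ctps (0.9816). Naa25, a subunit of an N-terminal acetyltransferase, was at 16.2 and 16.1 FPKM in control WT, 19.2 and 19.5 in IL-6-treated WT, 14.8 and 14.3 in control KO and 15.7 and 14.8 in IL-6-treated KO. Ctps, which makes CTP, was at 64.8 and 68.7, 105.1 and 102.8, 50.5 and 47.1, and 54.1 and 52.0 FPKM in the same order. These are descriptions over 8 libraries that share the 4 groups.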
